A study of Mus musculus with 30 samples.

Results

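The genes described here are 40 slower or additional activity-regulated genes of the mouse, chosen by name from the genes that neurons are known to induce after the first immediate early genes or beside them. They are 40 of the 49315 genes in the deposited count table, and all 40 were among the 16486 genes that passed a filter on low counts. By role they are 14 transcription factors, 3 MAP kinase phosphatases, 4 kinases or pseudokinases, 5 growth and stress regulators, 4 G protein regulators and small GTPases, and 10 synaptic or secreted proteins. These genes and the other lists used below were chosen with earlier results of these data known. Their counts beside the share of all genes are therefore descriptions, not tests.

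Neuronal activity opens NMDA receptors and voltage-gated calcium channels, and the calcium that enters signals through kinases to transcription factors such as CREB, SRF and MEF2 that are already in the nucleus. A first set of genes, among them Fos and Arc, responds without new protein synthesis. Further sets follow that encode transcription factors, brakes on the MAP kinase pathway, and secreted or synaptic proteins that change the connections of the cell, and in the hippocampus these programmes are widely studied for their link to plasticity and memory.

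Bulk RNA-seq was done on the hippocampus of 30 C57BL/6J mice, 13 of them TIMP2 knockout (KO) and 17 wild type (WT), to ask how loss of TIMP2, a secreted inhibitor of matrix metalloproteinases, affects hippocampal transcripts. The KO mice carry a global deletion of TIMP2, on a line from the Jackson Laboratory, and the labels name no treatment for either genotype. There were 6 KO males, 7 KO females, 10 WT males and 7 WT females, with 1 library per mouse, so the replicate is the mouse. The age at dissection is not given in the sample labels, nor is the time between handling and dissection. The study's methods name isolation or harvest date as a batch that was adjusted for in its network analysis. The labels do not give these dates, so neither the differences between genotypes nor the correlations across mice could be adjusted for them or examined within a date, and the part of harvest date in either was not tested.

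The libraries held between 18345517 and 41081083 counts assigned to genes in KO mice and between 19445246 and 32098386 in WT mice. Timp2 itself lay between 130.0 and 170.9 CPM (counts scaled to the size of the library) in KO mice and between 256.4 and 380.4 CPM in WT mice. The ranges did not overlap, so the libraries separated by their genotype labels. A ratio of 0.50 to the WT level was still counted in KO, and counts summed over the gene cannot show whether both copies are deleted. The study's methods state that heterozygous mice were left out. Markers of dentate granule, CA1 and CA3 neurons were present in every library, and the summed level of 6 striatal markers lay between 84.4 and 109.7 CPM in KO and between 85.8 and 99.5 CPM in WT mice. Of 8 dentate granule markers 5 were lower in KO at an unadjusted p under 0.05 (Prox1, Dsp, Stxbp6, Tdo2 and Dock10), against 2.56% of all genes. None passed after adjustment over all genes, where the lowest adjusted p was 0.751 in edgeR, for Tdo2. The summed level of the 8 markers was 502 to 680 CPM in KO mice, with a median of 635 CPM. In WT mice it was 572 to 871 CPM, with a median of 651 CPM. Of 9 choroid plexus markers 5 could be tested, while Folr1, Aqp1, Kcnj13 and Otx2 did not pass the filter. At the same threshold 4 were higher in KO (Ttr, Clic6, Sostdc1 and Enpp2), against 2.47% of all genes. Of these, Ttr alone passed after adjustment over all genes (adjusted p = 0.0326 in edgeR). The summed level of the 9 markers was 132 to 1131 CPM in KO and 125 to 177 CPM in WT mice. Its medians lay close together, at 163 CPM in KO and 157 CPM in WT mice. The part of either list in the differences between genotypes was not tested. In bulk tissue, fewer cells of a type and less RNA per cell cannot be told apart.

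Between genotypes, 5 of the 40 genes were higher in KO and 0 were lower at an unadjusted p under 0.05, the threshold that the study's methods used, in edgeR's quasi-likelihood test. They were the neuropeptide precursor gene Vgf, the MAP kinase phosphatase genes Dusp5 and Dusp6, the zinc-finger transcription factor gene Egr4 and the pseudokinase gene Trib1. Over all genes tested, 5.03% passed this threshold, 2.47% in the higher and 2.56% in the lower direction. At a Benjamini-Hochberg adjusted p under 0.05 in the same edgeR fit, 0.0546% of all genes and 0 of the 40 passed, and the lowest adjusted p among the 40 was 0.528, for Vgf. The log2 fold change was above 0 for 34 of the 40 genes, against 50.2% of all genes, and its median over the 40 was 0.06, against 0.00 over all genes. The 40 genes share mice and many vary together, so the signs are not independent of each other.

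**Figure D1:**
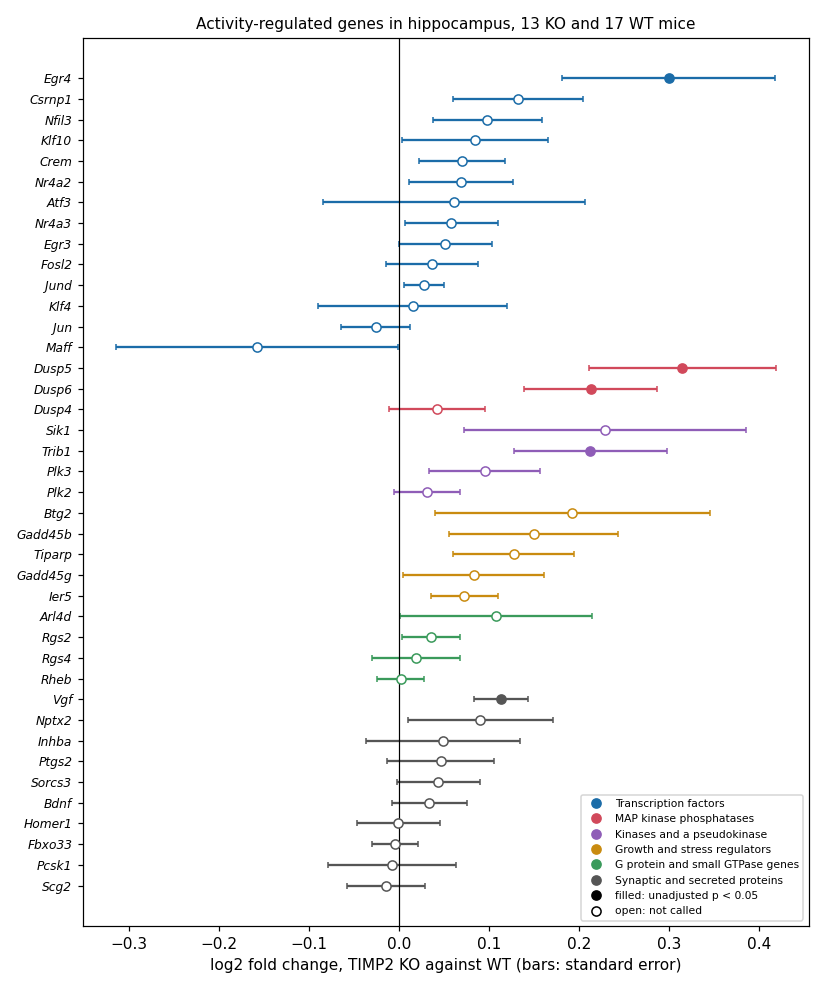
Log2 fold change of each of the 40 genes in TIMP2 KO against WT hippocampus (x axis), with the standard error as a bar, grouped by role and ordered within each role on the y axis. The 5 filled points passed an unadjusted p under 0.05 and all lie to the right of 0, and 34 of the 40 points have a value above 0.

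Vgf encodes a secretory granule protein that is cut into neuropeptides. Its level in the 13 KO mice lay between 190 and 233 CPM with a median of 221 CPM, and in the 17 WT mice between 178 and 221 CPM with a median of 199 CPM. The ranges overlapped, but 12 of 13 KO mice were above the WT median, 6 were above the highest WT mouse, and 2 WT mice were below the lowest KO mouse. The log2 fold change was 0.11 (SE 0.03, n = 13 and 17), a ratio of 1.08, with an unadjusted p of 0.000641 and an adjusted p of 0.528 in edgeR. Vgf was the only one of the 5 that passed the unadjusted threshold in both sexes taken alone, with log2 fold changes of 0.13 (SE 0.04) in females and 0.10 (SE 0.05) in males, and it passed in all 10 alternative analyses, with a highest unadjusted p of 0.0427. Vgf lies at chr5:137026392-137033351 on the plus strand of GRCm38.

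Dusp5 and Dusp6 encode phosphatases that remove phosphate from the MAP kinases ERK1 and ERK2, in the nucleus and in the cytoplasm respectively. Dusp5 (chr19:53529109-53542431, plus strand) ranged from 16.2 to 31.9 CPM with a median of 23.2 CPM in KO and from 12.7 to 30.0 CPM with a median of 17.8 CPM in WT mice. It had the highest log2 fold change of the 40 genes, 0.31 (SE 0.10), with an unadjusted p of 0.0044 and an adjusted p of 0.843 in edgeR. The ranges overlapped widely at the top, where a single KO mouse exceeded the highest WT mouse, and less at the bottom, where 7 WT mice fell under the lowest KO mouse. Dusp6 (chr10:99263231-99267489, plus strand) ranged from 43.2 to 75.6 CPM with a median of 58.9 CPM in KO and from 36.1 to 68.5 CPM with a median of 51.9 CPM in WT mice. Of the KO mice 11 of 13 were above the WT median for Dusp6, and its log2 fold change was 0.21 (SE 0.07), with an unadjusted p of 0.00685 and an adjusted p of 0.882 in edgeR. Dusp4, the third phosphatase gene of the group, had a log2 fold change of 0.04 (SE 0.05) and was not called (adjusted p = 0.998 in edgeR). An exon of Dusp5 overlaps the unnamed gene AC137853.2 on the opposite strand, and since the strand setting of the counting is not stated, reads of the pair cannot be told apart. The same holds for exons of Jun, Jund, Csrnp1, Crem, Plk3, Tiparp and Bdnf.

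Egr4 belongs to the same zinc-finger family as Egr1, and Trib1 encodes a scaffold protein with a kinase-like domain that brings targets to ubiquitin ligases. Egr4 (chr6:85511121-85513589, minus strand) ranged from 20.7 to 45.8 CPM with a median of 29.6 CPM in KO and from 16.6 to 41.9 CPM with a median of 23.1 CPM in WT mice. Of the KO mice 11 of 13 were above the WT median and 2 above the highest WT mouse. Its log2 fold change was 0.30 (SE 0.12), with an unadjusted p of 0.0159 and an adjusted p of 0.928 in edgeR. Trib1 (chr15:59648350-59657099, plus strand) ranged from 8.83 to 16.4 CPM with a median of 12.0 CPM in KO and from 8.27 to 15.0 CPM with a median of 10.2 CPM in WT mice. Its ranges overlapped almost throughout, with 2 KO mice above the highest WT mouse, and its log2 fold change was 0.21 (SE 0.09), with an unadjusted p of 0.0178 and an adjusted p of 0.944 in edgeR.

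**Figure D2:**
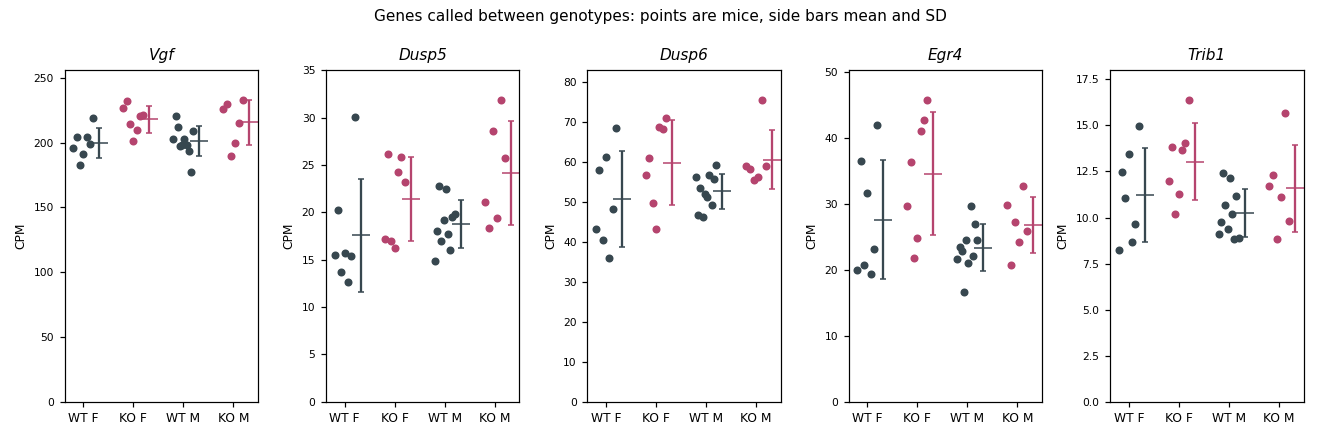
CPM of Vgf, Dusp5, Dusp6, Egr4 and Trib1 (y axes, from 0) in WT and KO females (F) and males (M), 1 point per mouse, with the mean and SD of each group as a bar beside its points. The KO points sit higher on average in both sexes for each gene, and in every panel the genotypes overlap.

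None of the 5 calls was lost when any single mouse was left out, the KO mouse with the highest choroid plexus sum included. With sex as a covariate the same 5 genes were called, and without a filter on low counts 7 were, with Ier5 and Tiparp added, against 3.27% of all genes called higher. In females alone, Vgf was the 1 gene of the 40 that was called, against 2.33% of all genes called higher. In males alone, 7 were called and all were higher in KO, against 1.61% of all genes called higher: Vgf, Egr4, Dusp5, Dusp6, the transcription factor gene Csrnp1, the immediate early response gene Ier5, and Tiparp, which encodes a mono-ADP-ribosyltransferase. Tested directly, the interaction of sex and genotype passed an unadjusted p under 0.05 for 0 of the 40 genes in edgeR and in DESeq2, against 2.57% of all genes in edgeR, and 0 of all genes passed after adjustment. The lowest interaction p was that of Atf3, a stress-induced transcription factor gene, at 0.0592 unadjusted and 1.00 adjusted in edgeR.

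When the log2 level of Fos was added to the edgeR fit as a covariate, 4 of the 5 calls ended and Vgf remained, with 2 of the 40 called in all, against 4.76% of all genes. The log2 fold change of Vgf was then 0.11 (SE 0.03, unadjusted p = 0.00169 in edgeR), that of Egr4 0.03 (SE 0.06), that of Dusp6 0.08 (SE 0.06), that of Dusp5 0.19 (SE 0.10) and that of Trib1 0.09 (SE 0.08). In that fit Btg2, an antiproliferative gene that p53 and activity induce, was lower in KO, with a log2 fold change of -0.17 (SE 0.06, unadjusted p = 0.011 and adjusted p = 0.981 in edgeR), where its value without the covariate was 0.19 (SE 0.15). Fos itself had a log2 fold change of 0.75 between genotypes (SE 0.32, unadjusted p = 0.0243 and adjusted p = 0.952 in edgeR). The covariate therefore shares part of the genotype difference, and this fit cannot tell the 2 apart. The same 4 calls also ended with 8 surrogate variables in the fit, where Vgf, Ier5 and the neurotrophin gene Bdnf were higher and Maff, a small Maf transcription factor gene, was lower in KO, 4 of 40 against 5.65% of all genes. The median log2 fold change of the 40 genes, 0.06 without covariates, was 0.02 with Fos and 0.01 with surrogate variables. In the other alternative analyses it lay between 0.04 (females alone) and 0.07 (males alone).

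Among the other transcription factor genes, 13 of 14 were not called. Their log2 fold changes lay between -0.16 (SE 0.16) for Maff and 0.13 (SE 0.07) for Csrnp1. Jun and Jund, subunits of AP-1, had values of -0.03 (SE 0.04) and 0.03 (SE 0.02), and Fosl2, a Fos relative, had 0.04 (SE 0.05). The orphan nuclear receptor genes Nr4a2 and Nr4a3 had 0.07 (SE 0.06) and 0.06 (SE 0.05), and Egr3 had 0.05 (SE 0.05). The remaining members Klf4, Klf10, Atf3, Crem and Nfil3 lay between 0.02 and 0.10. Maff is the weakest gene of the 40, at 7 counts in its lowest library, and its KO mice ranged from 0.384 to 1.57 CPM and its WT mice from 0.538 to 1.52 CPM.

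None of the 5 growth and stress regulators (Btg2, Ier5, Tiparp and the DNA-damage-inducible genes Gadd45b and Gadd45g) was called, with log2 fold changes between 0.07 and 0.19. The kinases Sik1, Plk2 and Plk3 were not called either, at 0.23 (SE 0.16), 0.03 (SE 0.04) and 0.10 (SE 0.06). The 4 G protein and small GTPase genes lay between 0.00 and 0.11: Rgs2 and Rgs4 encode proteins that switch off G protein signals, Rheb activates mTORC1, and Arl4d encodes an ARF-like GTPase. Of the 10 synaptic and secreted genes, Vgf was called and the others lay between -0.01 and 0.09 on the log2 fold change scale. Homer1, a scaffold at glutamatergic synapses, ranged from 122 to 190 CPM in KO and from 126 to 169 CPM in WT mice, with medians of 137 and 138 CPM. Its log2 fold change was -0.00076 (SE 0.05, unadjusted p = 0.987 in edgeR), and the counts are summed over the gene, so the short activity-induced Homer1a form cannot be seen apart from the long forms. Bdnf likewise is counted over all of its promoters, and its value was 0.03 (SE 0.04). Nptx2, a pentraxin that clusters AMPA receptors, had 0.09 (SE 0.08), and Scg2, a secretogranin, had -0.01 (SE 0.04). The activin subunit gene Inhba, the prohormone convertase gene Pcsk1, the sorting receptor gene Sorcs3, the cyclooxygenase gene Ptgs2 and the ubiquitin ligase adaptor gene Fbxo33 completed the group, with SEs between 0.03 and 0.09.

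The 15 rapid immediate early genes of a separate list had 10 called higher and 0 lower, against 2.47% and 2.56% of all genes, and a median log2 fold change of 0.37. Fosl1, Ppp1r15a, Ier3, Zfp36 and Egr2 were not called, at -0.00086, 0.01, 0.07, 0.12 and 0.69. Fos had a log2 fold change of 0.75 (SE 0.32, unadjusted p = 0.0243, adjusted p = 0.952 in edgeR) and Arc, a postsynaptic protein that takes AMPA receptors off the membrane, had 0.50 (SE 0.18, unadjusted p = 0.00908, adjusted p = 0.882 in edgeR). Upstream of both sets, 23 genes of calcium, kinase and nuclear signalling had 0 called higher and 1 lower, the ERK1 gene Mapk3, at -0.07 (SE 0.03). Among 19 receptors and partners of the 40 genes, such as the BDNF receptor gene Ntrk2 and the pentraxin receptor gene Nptxr, 0 were called higher and 1 lower, the activin receptor gene Acvr1b, at -0.05 (SE 0.02). Single calls in lists of this size are near the 2.56% of all genes called lower.

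The rapid genes varied widely from mouse to mouse within each genotype. Fos ranged from 4.09 to 39.9 CPM with a median of 18.7 CPM in KO and from 3.36 to 33.0 CPM with a median of 7.87 CPM in WT mice, and Arc from 65.0 to 246 CPM and from 55.7 to 213 CPM. The Fos values were spread without a gap between low and high mice, and those of Arc ran in parallel (r = 0.95 over 30 mice on the log2 CPM scale). Each of the 40 genes was therefore compared with Fos and with Arc from mouse to mouse. All such values share the library and its scaling, and Fos and Arc are not independent yardsticks.

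Over the 30 mice, 9 of the 40 genes correlated with Fos at an adjusted p under 0.05, against 0.261% of the 16485 other genes tested, in a permutation test of 100000 resamples adjusted over all of those genes. They were Btg2, Egr4, Sik1, Gadd45b, Tiparp, Dusp6, Csrnp1, Gadd45g and Arl4d, all with a positive r. With Arc the same 9 and also Dusp5 and Trib1 were called, 11 of 40, against 0.467% of all genes. The 9 were among only 43 genes called with Fos in the whole table, 12 others of which belonged to the list of rapid genes. By role, 4 of 5 growth and stress regulators were called with both genes, and 2 of 14 transcription factors, 1 of 3 phosphatases, 1 of 4 kinases and 1 of 4 G protein and GTPase genes. Of the 10 synaptic and secreted genes 0 were called with either gene, and their r with Fos lay between -0.21 and 0.21.

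**Figure D3:**
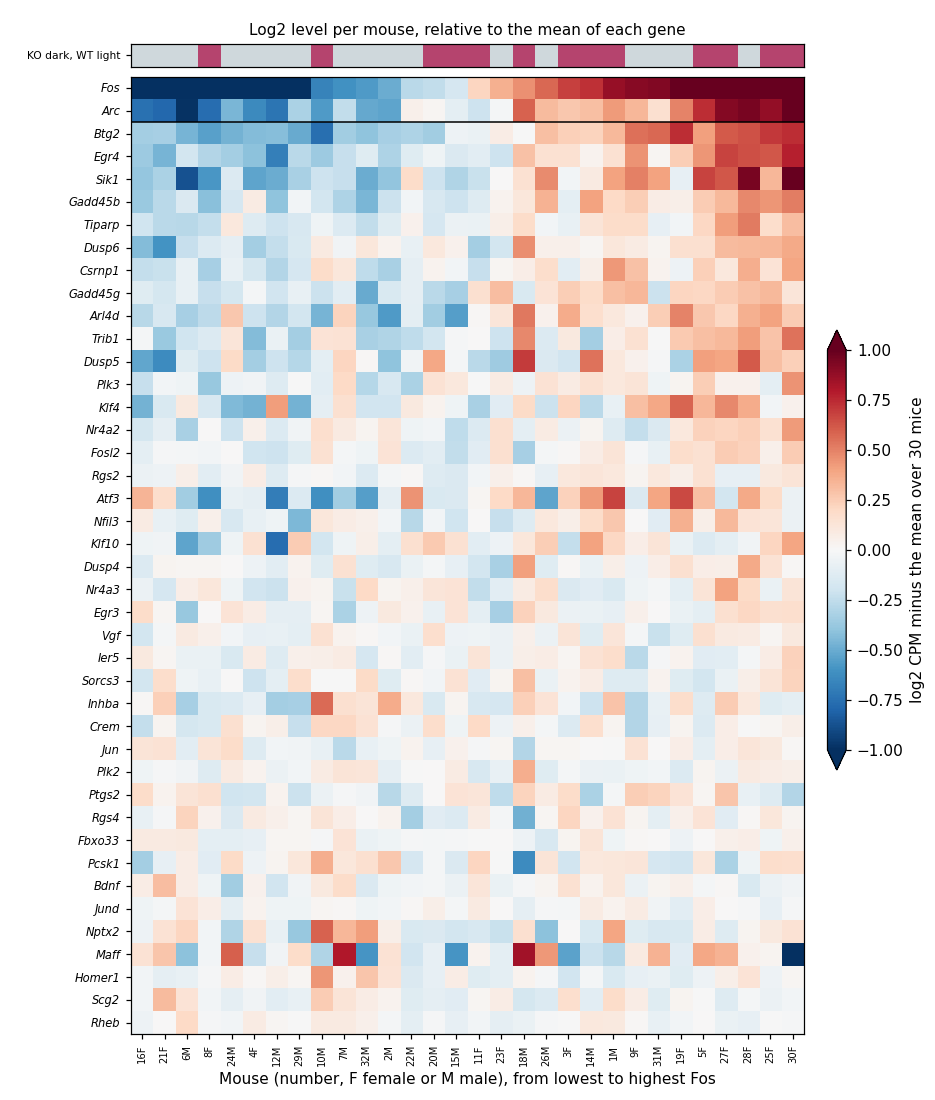
Level of Fos, Arc and the 40 genes (rows) in each of the 30 mice (columns, from lowest to highest Fos), as log2 CPM minus the mean of the gene over all mice. The colour scale stops at 1 in either direction. Genes are ordered by r with Fos, from Btg2 (r = 0.92) to Rheb (r = -0.29), and the shift from blue to red across the mice fades down the rows.

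Btg2 had the highest r with Fos of the 40 genes, 0.92 (Spearman rho 0.91, permutation p = 1e-05, the smallest that 100000 resamples can give, adjusted p = 0.00634), and ranged from 15.1 to 42.5 CPM in KO and from 18.0 to 42.7 CPM in WT mice. Its log2 level was higher by 0.38 (SE 0.03) per log2 unit of Fos, where Arc was higher by 0.52 (SE 0.03). Egr4 followed with an r of 0.89 (rho 0.92), and with Arc it had the highest r of the 40 genes, 0.93 (rho 0.94). Sik1, a salt-inducible kinase that restrains CREB coactivators, had an r of 0.86 with Fos and 0.91 with Arc, and a level of 6.27 to 19.5 CPM in KO and 5.11 to 18.3 CPM in WT mice. Gadd45b had an r of 0.82 with Fos (rho 0.81) and Tiparp one of 0.79 (rho 0.80), with the same smallest permutation p. These genes therefore followed Fos closely in both genotypes, while neither Btg2, Sik1, Gadd45b nor Tiparp was called between the genotypes.

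Within the genotypes the same relation held for most of them, at lower power. Among the 13 KO mice r with Fos was 0.95 for Btg2, 0.91 for Egr4, 0.90 for Sik1, 0.92 for Gadd45b and 0.86 for Tiparp, and among the 17 WT mice it was 0.92, 0.86, 0.83, 0.74 and 0.71. After adjustment over all genes, 3 of the 40 were called with Fos in KO mice alone (Btg2, Sik1 and Gadd45b) and 3 in WT mice alone (Btg2, Sik1 and Egr4), against 0.0728% and 0.103% of all genes. With Arc, 4 were called in KO mice (Btg2, Egr4, Sik1 and Gadd45b) and 5 in WT mice (the same and Tiparp), against 0.0849% and 0.133% of all genes. A difference between the genotypes in these r values was not tested. With genotype and sex removed from every gene, 9 of the 40 were called, against 0.249% of all genes. Without the 2 mice farthest from the median of Fos, both of them WT females with low Fos, 6 of the 40 were called, against 0.224% of all genes, and r was 0.94 for Btg2, 0.89 for Egr4, 0.88 for Sik1, 0.80 for Gadd45b and 0.77 for Tiparp, while Csrnp1, Gadd45g and Arl4d had adjusted p-values of 0.0521, 0.0577 and 0.0681. The log2 library total had an r of -0.22 with Fos (rho -0.14, permutation p = 0.248 and 0.448). Without the 2 mice farthest from the median library total, which are other mice, it was -0.15.

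Dusp6 was called with both Fos (r = 0.77, rho 0.78) and Arc (r = 0.80, rho 0.81), and r with Fos was 0.58 within KO and 0.81 within WT mice. Dusp5 had an r of 0.57 with Fos (rho 0.58, permutation p = 0.00108, adjusted p = 0.162) and one of 0.67 with Arc (rho 0.67, permutation p = 8e-05, adjusted p = 0.0259). Trib1 had an r of 0.64 with Fos (permutation p = 0.00018, adjusted p = 0.0593) and one of 0.71 with Arc (permutation p = 5e-05, adjusted p = 0.0192), which moved to 0.66 without the 2 mice farthest from the median of Arc (adjusted p = 0.0645). Within KO mice r with Arc was 0.64 for Dusp5 and 0.66 for Trib1, and within WT mice 0.54 and 0.65. Neither was called there (permutation tests, adjusted p from 0.462 to 0.654). With genotype and sex removed, r was 0.70 for Dusp5 (adjusted p = 0.00532) and 0.62 for Trib1 (adjusted p = 0.0549). Arc itself was higher in KO, so r over both genotypes holds part of the genotype difference. Among the 5 genes called between genotypes, 4 thus correlated with Arc and 2 with Fos over all 30 mice. The exception was Vgf, whose r was 0.21 with Fos (rho 0.21, permutation p = 0.254, adjusted p = 0.744) and 0.27 with Arc. Within WT mice r of Vgf with Fos was -0.06 and within KO mice 0.05.

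**Figure D4:**
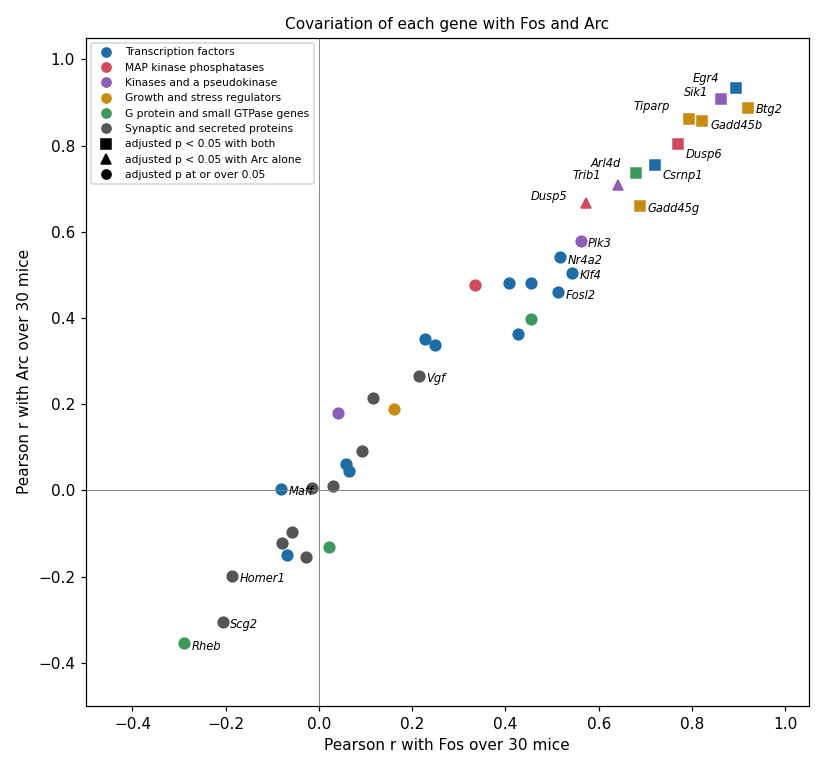
Pearson r of each of the 40 genes with Fos (x axis) and with Arc (y axis) over 30 mice, coloured by role, with squares for genes called with both, triangles for Dusp5 and Trib1, called with Arc alone, and circles for the others. The 10 synaptic and secreted genes (grey) lie around 0, and the called genes fill the upper right.

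At the other end of the order stood Rheb, Scg2, Homer1, Maff and Nptx2. Rheb had an r of -0.29 with Fos (rho -0.23, permutation p = 0.120, adjusted p = 0.630) and -0.36 with Arc. Scg2 had -0.21 (rho -0.16), Homer1 -0.19 (rho -0.15), and Maff and Nptx2 each -0.08. Over all 30 mice none of the 5 passed an unadjusted permutation p under 0.05 with Fos or Arc, and at this number of mice a weak relation was not detectable. In the 17 WT mice alone Rheb had an r of -0.48 with Fos (permutation p = 0.045, adjusted p = 0.756) and -0.56 with Arc (permutation p = 0.0175, adjusted p = 0.563), while in the 13 KO mice r was -0.02 and -0.16. With genotype and sex removed, Scg2 had an r of -0.38 with Arc (permutation p = 0.037, adjusted p = 0.330). Rheb was among the steadiest of the 40 genes, at 114 to 131 CPM in KO and 113 to 139 CPM in WT mice, and Scg2 ranged from 201 to 270 CPM and from 206 to 282 CPM. Nptx2 varied more, from 26.0 to 44.4 CPM in KO and from 22.2 to 39.5 CPM in WT mice, but not with Fos.

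Between these ends lay genes with a positive but weaker r with Fos. Plk3 (0.56), Klf4 (0.54), Nr4a2 (0.52), Fosl2 (0.51), Rgs2 (0.46), Atf3 (0.46), Nfil3 (0.43) and Klf10 (0.41) passed an unadjusted permutation p under 0.05 and did not pass after adjustment, where the lowest value was the 0.162 of Plk3. In all, 19 of the 40 genes had an unadjusted p under 0.05 with Fos, each with a positive r, against 4.65% of all genes. Dusp4, Nr4a3, Egr3 and Ier5 had an r of 0.33, 0.25, 0.23 and 0.16. The values of Jun, Jund, Crem, Plk2, Rgs4, Bdnf, Inhba, Pcsk1, Sorcs3, Ptgs2 and Fbxo33 lay between -0.07 and 0.12.

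**Figure D5:**
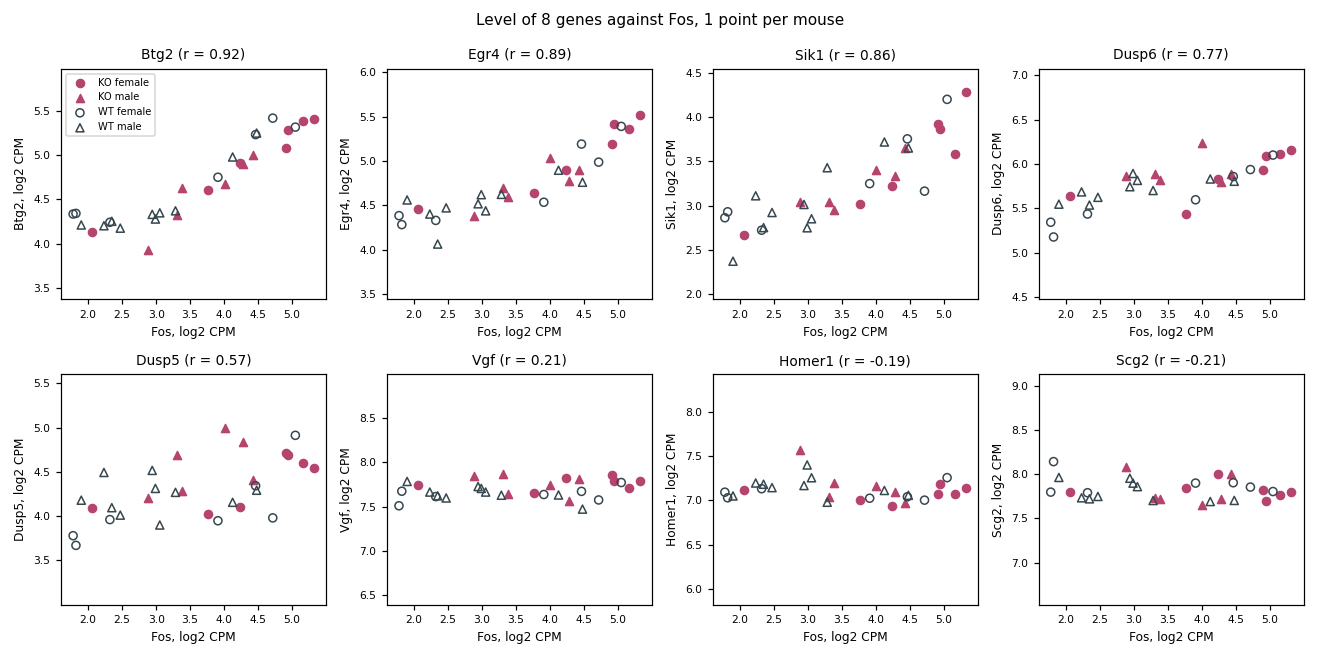
Log2 CPM of 8 genes (y axes, each spanning the same width) against the log2 CPM of Fos (x axis), 1 point per mouse, filled for KO and open for WT, circles for females and triangles for males. Btg2, Egr4 and Sik1 climb with Fos (r = 0.92, 0.89 and 0.86), and Vgf, Homer1 and Scg2 stay level (r = 0.21, -0.19 and -0.21).

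The genes that followed Fos were not the abundant ones. Per kilobase of exon, the highest mean levels were those of Scg2 (90.5 CPM per kb), Vgf (69.8), Jund (68.9) and Rgs4 (57.4), and the 9 genes called with Fos lay between 1.94 CPM per kb for Sik1 and 17.7 for Dusp6. The lowest were Maff (0.340), Atf3 (0.467) and Inhba (0.522). From mouse to mouse the SD of the log2 level was largest for Sik1 (0.47) and Btg2 (0.46), which both followed Fos, and for Maff (0.41), which did not. Maff had only 7 to 52 counts per library, and the part of counting noise in its SD and its r was not tested. The SD was smallest for Jund (0.06), Rheb (0.07) and Fbxo33 (0.07). Over its whole range of mice Sik1 spanned 1.91, Btg2 1.49 and Egr4 1.46 on the log2 scale, while Fos spanned 3.54.

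CREB binds the palindrome TGACGTCA, the cyclic AMP response element (CRE), and its half-site TGACG, and SRF binds the CArG box. Both factors are known to carry activity signals to such genes, so the 250 bases before the RefSeq transcription start (GRCm38.p6) were searched on both strands. Windows were found for 32 of the 40 genes, and not for Egr3, Klf10, Crem, Dusp4, Sik1, Trib1, Nptx2 and Vgf. The full CRE was present for 6 of the 32 (18.8%, against 1.77% of 27025 genes), namely Btg2, Arl4d, Maff, Plk2, Pcsk1 and Scg2. The half-site, which every full CRE contains, was present for 20 of 32 (62.5%, against 19.8%), and the CArG box for 1, Dusp5 (against 1.62%). An EGR site, GCGNGGGCG, was present for 8 of 32 (25.0%, against 5.33%) and an AP-1 site, TGANTCA, for 2 (6.25%, against 7.82%). The 27025 genes are more than the 16486 that passed the filter on low counts, while all of the 32 passed it. The shares therefore compare unlike sets of genes, and the part of this in them was not tested. Genes with several start sites had several windows, and a match is a description of the sequence, not a binding site.

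The windows of Btg2 and Arl4d, which followed Fos, and of Plk2 and Scg2, which did not, are printed to show that all 4 carry the same full CRE. Egr4 is added as the gene closest to Arc, with half-sites alone, and Dusp5 as the gene with CArG boxes. Capitals mark the CRE, other half-sites (CGTCA on the strand shown) and the CArG boxes. Each window reads 5′ to 3′ on the strand of its gene, Btg2 at chr1:134079156-134079405 (minus), Arl4d at chr11:101665291-101665540 (plus), Plk2 at chr13:110394794-110395043 (plus), Scg2 at chr1:79440027-79440276 (minus), Egr4 at chr6:85513590-85513839 (minus) and Dusp5 at chr19:53528895-53529144 (plus).
Btg2: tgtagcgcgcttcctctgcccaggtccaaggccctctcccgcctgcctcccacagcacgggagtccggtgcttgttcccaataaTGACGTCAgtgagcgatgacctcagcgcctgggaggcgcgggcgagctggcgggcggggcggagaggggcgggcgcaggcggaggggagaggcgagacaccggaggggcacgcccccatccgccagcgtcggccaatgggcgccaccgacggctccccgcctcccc
Arl4d: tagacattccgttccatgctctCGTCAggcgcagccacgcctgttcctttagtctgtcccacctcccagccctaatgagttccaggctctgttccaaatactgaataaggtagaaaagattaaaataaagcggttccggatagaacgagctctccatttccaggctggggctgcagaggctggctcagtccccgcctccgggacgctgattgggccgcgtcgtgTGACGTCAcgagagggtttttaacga
Plk2: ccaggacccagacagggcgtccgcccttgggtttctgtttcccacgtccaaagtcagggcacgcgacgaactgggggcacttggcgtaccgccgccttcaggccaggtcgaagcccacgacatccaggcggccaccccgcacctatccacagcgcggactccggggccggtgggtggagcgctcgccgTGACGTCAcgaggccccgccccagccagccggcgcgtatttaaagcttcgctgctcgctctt
Scg2: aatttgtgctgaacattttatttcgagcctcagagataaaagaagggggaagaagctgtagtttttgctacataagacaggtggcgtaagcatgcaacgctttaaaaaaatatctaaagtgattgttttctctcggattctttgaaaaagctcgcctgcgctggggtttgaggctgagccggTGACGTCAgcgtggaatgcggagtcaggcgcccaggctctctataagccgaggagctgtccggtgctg
Egr4: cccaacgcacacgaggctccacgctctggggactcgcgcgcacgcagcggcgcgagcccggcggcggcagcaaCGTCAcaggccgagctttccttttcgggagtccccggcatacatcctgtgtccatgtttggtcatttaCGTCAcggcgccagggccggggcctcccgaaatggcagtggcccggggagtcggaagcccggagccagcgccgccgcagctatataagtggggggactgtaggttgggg
Dusp5: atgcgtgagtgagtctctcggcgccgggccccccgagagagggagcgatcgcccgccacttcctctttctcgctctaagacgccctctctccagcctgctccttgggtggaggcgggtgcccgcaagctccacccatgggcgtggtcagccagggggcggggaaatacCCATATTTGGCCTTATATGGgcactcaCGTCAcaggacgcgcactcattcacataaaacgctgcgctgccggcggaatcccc
The CRE begins 166 bases before the start in Btg2, 26 in Arl4d, 62 in Plk2 and 68 in Scg2. In Egr4 the half-sites begin 177 and 109 bases before the start. In Dusp5 a pair of adjoining CArG boxes begins 82 and 72 bases before the start, with a half-site at 55. The r with Fos of these genes was 0.92 for Btg2, 0.68 for Arl4d, 0.04 for Plk2 and -0.21 for Scg2, and of the other CRE genes Maff and Pcsk1 it was -0.08 and -0.03, so genes with a full CRE were found at both ends of the order.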

How the data were processed

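RNA from hippocampi was sequenced as paired-end reads on an Illumina HiSeq. Per the labels, the authors trimmed reads with Trimmomatic 0.36, aligned them to GRCm38 with STAR 2.5.2b and deposited raw counts per gene from featureCounts (Subread 1.5.2). The strand setting and annotation release are not given in the sources used here. Symbols in the table were matched to GENCODE.

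The 40 genes and all lists were chosen with earlier results of these data known. Of 49315 genes, 15765 had no counts, and edgeR's filterByExpr kept 16486. Counts were TMM-scaled and fitted with edgeR 4.0.16 (quasi-likelihood, R 4.3.3), KO against WT over 30 mice with no covariate, and p-values were adjusted by Benjamini-Hochberg over all genes tested. Correlations used log2 CPM with a prior count of 2 and 2-sided permutation tests of 100000 resamples, adjusted over 16485 genes. Alternatives were DESeq2 1.42.0, limma 3.58.1 (voom), sva 3.50.0, other scalings and filters, covariates, each sex, and leaving out each mouse. The edgeR and correlation steps were tested on simulated data. Full values were given to genes with an unadjusted p under 0.05 and to the 5 highest and 5 lowest r with Fos, and others by role.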

Additional observations from a re-analysis of the deposited data

Results flagged for a closer look

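In 168 groups (each of the 40 genes, Fos and Arc in KO and WT males and females), 14 had a mouse that stood apart by Dixon's test at the 95% level on the log2 CPM scale. Chance flags about 1 in 20 groups, here 8.4. Of the 14, 5 were the same KO male, mouse 18, with Jun at 6.878 (the other KO males 7.088 to 7.212), Maff at 0.716 (-0.717 to -0.209), Dusp4 at 5.077 (4.542 to 4.725), Dusp6 at 6.241 (5.798 to 5.886) and Plk2 at 8.156 (7.724 to 7.869). Without this mouse the unadjusted p of Dusp6 between genotypes was 0.0178 in edgeR, still under the threshold. Among the other KO males, mouse 14 had the highest Fbxo33, at 6.067.

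Among KO females, Dusp4 was lowest in mouse 11 at 4.486, Gadd45g lowest in mouse 8 at 3.542 and Rheb lowest in mouse 27 at 6.852, and the same mouse 27 had the highest Inhba at 2.005. Among WT females, Nr4a3 was highest in mouse 28 at 6.868, Ier5 lowest in mouse 9 at 5.453 and Scg2 highest in mouse 21 at 8.141. Among WT males, Jund was highest in mouse 6 at 6.981. None of these genes was called between genotypes with all mice, other than Dusp6.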

How the results depend on the processing

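The count of 5 genes called higher in KO was 5 with RLE scaling, with DESeq2, with limma voom, with sex as a covariate and with a minimum of 10 counts in every mouse, where Maff dropped out, and 7 without a filter. It was 3 with surrogate variables, 1 with Fos as a covariate and 1 in females alone. The count called lower was 1 with surrogate variables and 1 with Fos as a covariate, which made 2 calls in all in the latter fit and 1 in females. Leaving out 1 mouse at a time gave 5 to 9 calls, all higher in KO. The 9 arose without KO female mouse 8 (adding Csrnp1, Ier5, Plk3 and Tiparp) and without WT female mouse 28 (adding Csrnp1, Sik1, Gadd45b and Tiparp), and the cause was not tested. For the fits without 1 mouse, the share of all genes called was not set beside these counts. Whether the rise to 9 was particular to these genes was therefore not tested. A share is likewise missing for RLE scaling, DESeq2, limma voom, sex as a covariate and the minimum of 10 counts. The 9 genes correlated with Fos over all mice became 3 in KO and 3 in WT mice alone, and the 11 correlated with Arc became 4 and 5, where fewer mice entered each test.

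Log2 fold changes that changed sign were all of genes not called with all mice. With Fos as a covariate 13 of the 40 changed sign, 7 of them among genes given here by role (to -0.12 for Klf4 at the most), and the others were -0.17 for Btg2, -0.12 for Sik1, -0.0498 for Gadd45b, -0.0041 for Tiparp, 0.0087 for Scg2 and 0.0229 for Homer1. With surrogate variables 11 did, 8 of them given by role (to -0.15 for Arl4d at the most), and the others were -0.0025 for Sik1, -0.0116 for Tiparp and 0.0025 for Scg2. In males alone 5 did (Rgs4, Klf4 and Fbxo33, with Scg2 at 0.0251 and Homer1 at 0.0266) and in females alone 6 (Atf3 at -0.23, Inhba, Klf10, Bdnf, Plk2 and Pcsk1). Homer1 was 0.0017 without a filter and 0.0099 with sex as a covariate, where Pcsk1 also changed sign, as it did with voom. With RLE scaling, DESeq2 and the minimum of 10 counts 0 changed sign. Leaving out 1 mouse at a time took 9 of the 40 across 0 (Klf4, Atf3, Plk2, Inhba, Pcsk1 and Fbxo33, and 3 with full values), and gave -0.0077 to 0.0149 for Rheb, -0.0381 to 0.0069 for Scg2 and -0.0446 to 0.0182 for Homer1. No r called with Fos or Arc over all mice changed sign. Of the rest, 6 of the 40 changed sign with Fos in KO mice alone, 7 in WT mice alone and 6 with genotype and sex removed, and with Arc 4, 5 and 3. Among the genes with full values, r with Fos changed sign for Vgf (-0.0567 in WT alone, -0.0146 with genotype and sex removed) and Maff (0.0296 and 0.0354), and the r with Arc for Vgf in WT alone (-0.0258) and for Maff with a prior count of 0.5 (-0.0012). The study's methods state that controls were littermates, but the labels give no litter. No analysis paired by litter was therefore possible, and the mice were treated as unpaired. Depth limits Maff and Atf3 most, with 7 and 14 counts in their lowest library.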
